A study of Danio rerio with 33 samples.

Results

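The testis of adult zebrafish labelled kctd15 mutant was compared with the testis of adult wild-type zebrafish by sequencing polyadenylated RNA, with 3 biological replicates in each group. These are 6 of the 33 samples of the series, chosen by their genotype and tissue labels. The rest are 21 embryo samples at 10 somites and 6 ovary samples. Of these, the ovaries and the embryos without injection of kctd15 mutant and wild-type fish, each with 3 replicates, serve below to place the testis values. The ovaries also share the fit, and its estimate of spread, behind the testis p-values. The other embryos were wild type and injected with AP2, AP2-P59 or kctd15, or with kctd15 and either of the others. They enter the embryo values only through a shared fit. The labels do not say which of the fish's kctd15 genes is mutated, what the allele is, which strain the wild-type fish came from, or whether a replicate is 1 fish or a pool. Differences of strain or rearing between the groups therefore cannot be told apart from the genotype. The testis p-values measure the spread between replicates over the testis and ovary samples fitted together.

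Kctd15 is a protein with a BTB domain, a fold through which proteins of this family bind each other and, in several members, attach targets to a Cullin3 ubiquitin ligase. It is known as an inhibitor of neural crest formation in the fish embryo and as a protein that binds and blocks the activation domain of AP2 transcription factors. The fish testis is built of cysts in which Sertoli cells enclose germ cells that pass together from spermatogonia through meiotic spermatocytes to spermatids, while Leydig cells between the cysts make androgens. In bulk tissue, fewer cells of a type and less RNA per cell cannot be told apart.

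The 6 testis libraries held 15267929 to 18448174 estimated counts. Levels are given as CPM (read counts scaled to a common library size) scaled by edgeR's TMM factors, and a gene is called where the Benjamini-Hochberg adjusted p of edgeR's quasi-likelihood test is under 0.05 over the 25870 genes tested. All 6 libraries carried the RNA of a testis. The synaptonemal complex gene sycp1 stood at 1444, 1784 and 1687 CPM in the mutant and 1771, 1664 and 1475 CPM in the wild type. The Leydig hormone insl3 stood at 2236, 2845 and 1738 CPM in the mutant and 1776, 1309 and 4064 CPM in the wild type. The summed level of 29 oocyte genes was 139 to 176 CPM in mutant testis and 151 to 204 CPM in wild-type testis, against 34330 to 42600 CPM in the ovaries. The libraries did not sort by genotype alone. Across log2 levels of all genes, mutant replicate 1 was most like wild-type replicate 1 (Pearson r = 0.958), while mutant replicates 2 and 3 were most like each other (r = 0.978), as were wild-type replicates 2 and 3 (r = 0.961). One ovary library, mutant replicate 3, carried liver genes at a summed 190300 CPM, and the ovary libraries take part in the estimate of spread used here.

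Neither kctd15 gene was called in testis. kctd15a stood at 4.16, 4.01 and 4.46 CPM in mutant testis and at 2.38, 2.04 and 3.92 CPM in wild-type testis. All 3 mutant libraries lay above the wild-type ones, with a log2 difference of 0.60 (SE 0.495, edgeR adjusted p = 0.934). kctd15b was near the limit of detection, with 24, 18 and 11 estimated counts in mutant testis and 44, 12 and 21 in wild-type testis. The groups overlapped, and the log2 difference was -0.67 (SE 0.62, edgeR adjusted p = 0.958), but -0.03 without wild-type replicate 1. In the deposited transcript table the kctd15a transcript XM_005163052 had 17.4, 50.4 and 37.3 estimated counts in mutant testis and 0, 0.003 and 18.2 in wild-type testis. A second kctd15a transcript, NM_001006012, had 4.39, 0 and 4.66 estimated counts in mutant testis and 0 in each wild-type library. These transcripts held less than the gene-level counts of kctd15a, and its other transcripts were not analysed here. In embryos kctd15a was called, at a mean of 189 CPM in mutants and 48.9 CPM in the wild type (log2 1.95, edgeR adjusted p = 0.00866). A mutation need not change the level of its transcript, so these levels do not check the genotype labels of the testis libraries.

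Few genes were called between mutant and wild-type testis by this fit. In all, 18 of the 25870 genes tested were called, which is 0.0696%: 7 were higher in mutant testis (0.0271%) and 11 lower (0.0425%). For each of the 18, all 3 mutant libraries lay on 1 side of all 3 wild-type ones, a pattern also met by 10.1% of all genes on the higher side and 5.72% on the lower side. Over all genes the median log2 difference was 0.072, and 57.1% of genes had a log2 difference above 0. An unadjusted p under 0.05 was reached by 1813 genes (7.01%). The called genes include a gene of ciliated cells, a polycystin gene, a small heat shock protein, a tropomyosin, a lectin and 3 genes of 1 TRIM family, and 9 of the 18 carry clone or locus names.

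**Figure D1:**
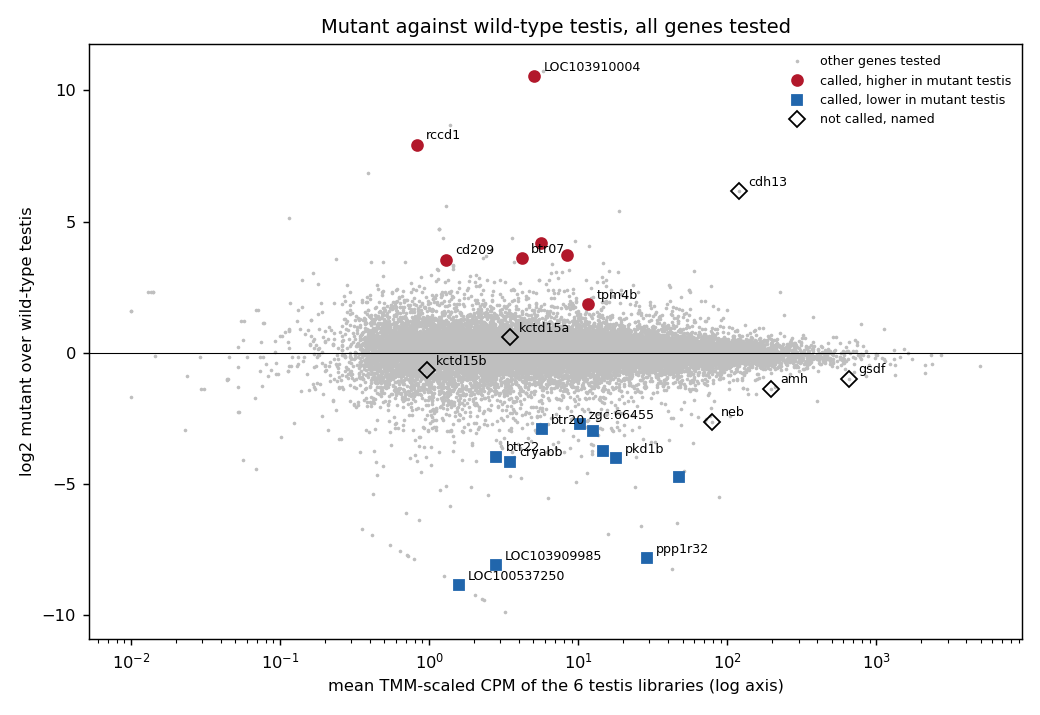
Each point is 1 of the 25870 genes tested, by its mean TMM-scaled CPM over the 6 testis libraries (log axis, means under 0.01 drawn at 0.01) and its fitted log2 of mutant over wild-type testis. Circles are the 7 called genes higher in mutant testis, squares the 11 called lower, and diamonds are named genes that were not called, among them kctd15a at 0.60 and kctd15b at -0.67.

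The largest fall among the called genes with a gene name was that of ppp1r32, annotated as a regulatory subunit of protein phosphatase 1 and known in mammals as a protein of ciliated cells. It stood at 0.36, 0.12 and 0.27 CPM in mutant testis, against 72.9, 62.9 and 37.1 CPM in wild-type testis. The message was thus close to absent from every mutant library (8, 3 and 7 estimated counts) and abundant in every wild-type one (1590, 1297 and 833). It fell by 7.82 on the log2 scale (SE 0.638, 226-fold, edgeR adjusted p = 0.000694). Of the 50 spermatid and sperm genes tested, a list of sperm tail and sperm head genes, none was called by edgeR or by DESeq2. Over all genes edgeR called 0.0696%, and DESeq2 called 0.522% higher and 0.611% lower. At such shares, 0 calls in a list of this size says little about sperm genes.

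pkd1b, a member of the polycystin-1 family of large membrane receptors, stood at 1.79, 2.23 and 2.25 CPM in mutant testis and at 37.3, 38.3 and 25.5 CPM in wild-type testis. All 3 mutant libraries lay far below the wild-type ones, and the gene fell by 4.01 on the log2 scale (SE 0.358, 16.1-fold, edgeR adjusted p = 0.000695). cryabb, which encodes an alpha-B crystallin, a small heat shock protein that holds unfolded proteins in solution, stood at 0.13, 0.57 and 0.39 CPM in the mutant and 4.36, 8.53 and 6.95 CPM in the wild type. It fell by 4.15 on the log2 scale (SE 0.656, edgeR adjusted p = 0.0481). Of the other 21 heat shock and chaperone genes tested none was called, where 0.0696% of all genes were. The cryabb paralog cryaba stood at 0.89, 1.05 and 0.78 CPM in the mutant and 0.73, 0.44 and 0.76 CPM in the wild type.

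Among genes higher in mutant testis, tpm4b was the one with the highest wild-type level. It encodes a tropomyosin, a coiled coil that lies along actin filaments, and stood at 20.3, 16.8 and 17 CPM in mutant testis and 4.59, 4.56 and 5.84 CPM in wild-type testis. Replicates varied little in either group, and the gene rose by 1.85 on the log2 scale (SE 0.254, 3.61-fold, edgeR adjusted p = 0.0211). Its level in the mutant was like that in both groups of ovaries, 16.9 ± 1.76 CPM in mutant and 18 ± 2.28 CPM in wild-type ovary (SD, n = 3 each). rccd1, whose human product binds a histone demethylase, had 30, 30 and 62 estimated counts in mutant testis and 0 in each wild-type testis library. With a floor of 3 counts over the wild-type group it was at least 36.2-fold higher in the mutant (edgeR adjusted p = 0.0357). The gene was not silent in wild-type fish elsewhere, with 5.11, 2.85 and 1.87 CPM in wild-type ovaries.

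cd209, a C-type lectin known in mammals from dendritic cells and macrophages, stood at 2.1, 2.59 and 2.48 CPM in mutant testis and 0.14, 0.15 and 0.31 CPM in wild-type testis, and rose by 3.54 on the log2 scale (SE 0.55, edgeR adjusted p = 0.0481). Its direction was opposite to that of most leukocyte genes, of which 27 of 33 had a log2 difference below 0. The leukocyte genes summed to 251 to 521 CPM in mutant and 421 to 1284 CPM in wild-type testis, and their part in this result was not tested.

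Of the 18 calls, 3 fell in 1 gene family, of which 18 genes were tested, and 0.0696% of all genes were called. The btr genes, named for their likeness to the gene bloodthirsty, encode TRIM proteins of a family that has grown large in fish. btr07 stood at 10.9, 4.82 and 7.45 CPM in mutant testis and 0.50, 0.63 and 0.76 CPM in wild-type testis, and rose by 3.60 on the log2 scale (SE 0.54, edgeR adjusted p = 0.0404). btr20 stood at 0.72, 1.66 and 1.63 CPM in the mutant and 14.2, 9.02 and 7.09 CPM in the wild type, and fell by 2.91 (SE 0.427, edgeR adjusted p = 0.0357). btr22 stood at 0.54, 0.12 and 0.35 CPM in the mutant and 4.08, 8.39 and 3.43 CPM in the wild type, and fell by 3.96 (SE 0.625, edgeR adjusted p = 0.0481). The family was singled out after its values were seen, and its 18 tested genes had a median log2 difference of 0.51, with 14 above 0 and 4 below. That median was 0.17 without mutant replicate 2, 0.31 without wild-type replicate 1, 0.90 without wild-type replicate 2 and 0.31 without wild-type replicate 3. At an unadjusted p under 0.05, 6 btr genes were higher, where 4.02% of all genes were, and 3 lower, where 2.99% were. Over the 6 runs that each left out 1 testis library, btr07 and btr22 kept their call in 0 and btr20 in 1. Members of such families are close copies, and estimated counts share reads among transcripts with common sequence, so the split between copies is uncertain.

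The other called genes have clone or locus names. LOC103910004 had 347, 223 and 150 estimated counts in mutant testis and 0 in each wild-type testis library, so it was at least 214-fold higher in the mutant (edgeR adjusted p = 0.000694). It was present in both groups of ovaries, at 9.03, 12.7 and 9.24 CPM in mutant and 12, 16.4 and 17.3 CPM in wild-type ovary. LOC101883942 stood at 8.67, 9.03 and 14.2 CPM in mutant testis and 0.37, 0.73 and 0.62 CPM in wild-type testis (log2 4.20, edgeR adjusted p = 0.0207). LOC101886642 stood at 7.29, 18.7 and 20.8 CPM in mutant testis and 1.24, 0.92 and 1.34 CPM in wild-type testis (log2 3.73, edgeR adjusted p = 0.0207). These 3 completed the genes that were higher in the mutant.

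On the lower side, LOC100535918, which RefSeq's GRCz12tu gene table names tgm1l5 after the transglutaminases that cross-link proteins, had the highest level. It stood at 2.41, 3.16 and 4.85 CPM in mutant testis and 34, 97.4 and 142 CPM in wild-type testis, and fell by 4.71 on the log2 scale (SE 0.619, edgeR adjusted p = 0.0197). The wild-type libraries spread widely here, but all of them lay above the mutant ones. si:dkey-281i8.1 stood at 1.65, 2.43 and 1.98 CPM in the mutant and 18, 33.6 and 30.6 CPM in the wild type (log2 -3.76, edgeR adjusted p = 0.00481). zgc:66455 stood at 2.59, 3.16 and 2.29 CPM in the mutant and 12.4, 21 and 20.1 CPM in the wild type (log2 -2.73, edgeR adjusted p = 0.00192). LOC103911693 stood at 2.06, 2.67 and 3.68 CPM in the mutant and 11, 35.6 and 20.3 CPM in the wild type (log2 -2.99, edgeR adjusted p = 0.0481). LOC100537250 had 0 estimated counts in each mutant testis library and 28, 107 and 67 in the wild-type ones, at least 75.6-fold lower in the mutant (edgeR adjusted p = 0.0481). LOC103909985 had 1 estimated count over the 3 mutant libraries and 365 over the 3 wild-type ones (edgeR adjusted p = 0.0197). The scaled wild-type level was 410 times the mutant one, with a 95% exact interval of 73.1 to 16200 that covers counting error only.

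**Figure D2:**
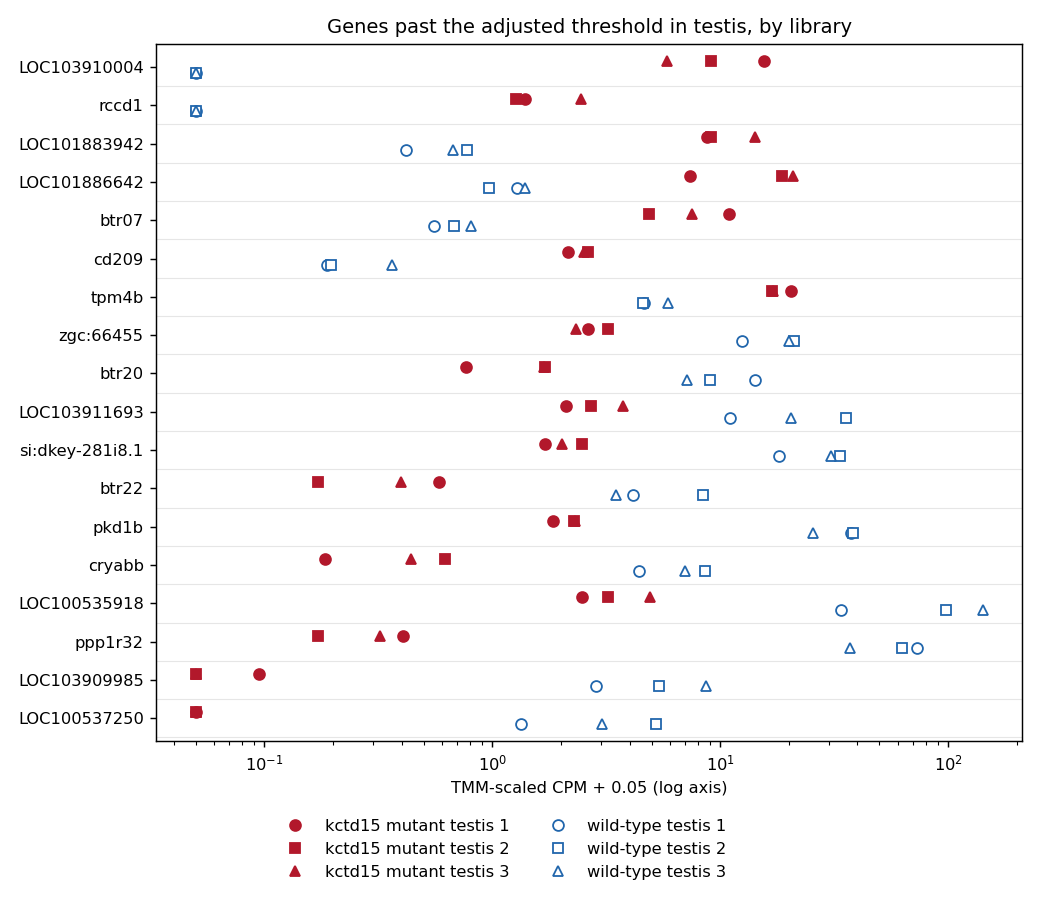
TMM-scaled CPM plus 0.05 (log axis) of the 18 called genes in each testis library, filled red symbols for mutant and open blue ones for wild type, with 1 symbol shape per replicate number. In each row the mutant symbols lie on 1 side of the wild-type symbols, and the 7 genes higher in the mutant are at the top.

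All 18 genes kept their direction under each alternative run, all 18 were called by DESeq2, and 17 were called by limma-trend. DESeq2 called 293 genes in testis, 135 higher (0.522%) and 158 lower (0.611%). Only ppp1r32, LOC103910004, pkd1b and zgc:66455 kept their edgeR call without each testis library in turn. The other 14 lost it without at least 1 of them. si:dkey-281i8.1 kept it in 5 of these 6 runs and LOC103909985 in 3. LOC100535918, LOC101883942, LOC101886642, tpm4b, rccd1, btr20, LOC100537250 and LOC103911693 kept it in 1 run. cd209, cryabb, btr07 and btr22 kept it in 0. The count of called genes was 5 without mutant replicate 2, 5 without mutant replicate 3 and 7 without wild-type replicate 2. The ovary libraries are part of the same fit. The count was 10, 11 and 6 without wild-type ovary replicates 1, 2 and 3. Without mutant ovary replicates 1, 2 and 3 it was 17, 14 and 24. With the 6 testis libraries fitted alone, 7 genes were called, of which 4 were among the 18 (ppp1r32, pkd1b, si:dkey-281i8.1 and LOC101883942).

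Some large differences lay just outside the threshold, and these genes were named after their values were seen. cdh13, which encodes T-cadherin, an adhesion protein anchored in the membrane by a lipid, stood at 181, 178 and 350 CPM in mutant testis and at 4.04, 3.44 and 2.45 CPM in wild-type testis. Its log2 difference was 6.16 (SE 1.06, edgeR adjusted p = 0.0882), and it was called by DESeq2 (adjusted p = 1.27e-10) and by edgeR on the testis libraries alone (adjusted p = 0.00704). Its spread in the shared fit includes 71.3, 2.02 and 14.6 CPM in the 3 mutant ovaries, against 2.39, 4.82 and 2.28 CPM in wild-type ovaries. In embryos it was called too, at a mean of 12.8 CPM in mutants and 1.02 CPM in the wild type (log2 3.64, edgeR adjusted p = 0.00825). neb, which encodes nebulin, the giant protein of the muscle thin filament, stood at 33.7, 19.8 and 11.9 CPM in mutant testis and 84.0, 161 and 159 CPM in wild-type testis (log2 -2.63, edgeR adjusted p = 0.058). Of 19 skeletal muscle genes tested, 11 were below 0 and 8 above, and none was called. Their sums overlapped, at 152 to 170 CPM in mutant and 119 to 169 CPM in wild-type testis. At an unadjusted p under 0.05, 2 were lower, where 2.99% of all genes were, and 0 higher, where 4.02% were. One of the lower genes was acta1a, a skeletal muscle actin, at 4.2, 2.88 and 3.18 CPM in the mutant and 9.45, 5.87 and 13.8 CPM in the wild type (log2 -1.50, edgeR adjusted p = 0.462). The part of muscle tissue in the neb value was not tested. katna1, the catalytic subunit of the microtubule-severing katanin, stood at 18.5, 20.3 and 18.2 CPM in the mutant and 10.4, 8.72 and 8.69 CPM in the wild type (log2 1.04, edgeR adjusted p = 0.0733).

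Genes present in every library of 1 genotype and at 0 in every library of the other were counted, with at least 10 estimated counts in each library of the genotype that had them. Of all 30490 genes with deposited counts, there were 6 on the mutant side, of which 2 were called, and 8 on the wild-type side, of which 1 was called. Over all genes tested 0.0696% were called. si:dkey-23f9.9 had 126, 484 and 250 estimated counts in mutant testis and 0 in each wild-type library, at least 255-fold higher in the mutant (edgeR adjusted p = 0.058, DESeq2 adjusted p = 0.33), and was at 0 in all 6 ovaries. si:ch211-147g22.4 had 0 in each mutant library and 126, 117 and 56 estimated counts in wild-type testis, at least 112-fold lower in the mutant (edgeR adjusted p = 0.0723, DESeq2 adjusted p = 0.458). kcnj10, an inwardly rectifying potassium channel, had 0 in each mutant library and 14, 25 and 14 estimated counts in wild-type testis (edgeR adjusted p = 0.0724, DESeq2 adjusted p = 0.00114).

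The same 18 genes were then read in the ovary and in the embryo. The ovary and testis differences compare different libraries but come from 1 fit with a shared estimate of spread, so their calls are not independent of each other; the embryo libraries were fitted apart. In the ovary, where 143 genes were called (0.553%), 13 of the 18 had the same direction as in testis and 5 were called, each in the same direction: cd209 was higher, and btr22, LOC100535918, LOC103909985 and LOC103911693 were lower. In embryos 12 of the 18 could be tested, 9 had the same direction, and 5 were called in that direction (btr20, LOC100535918, LOC103909985, pkd1b and si:dkey-281i8.1), where 4.09% of all genes were called. LOC100535918 and LOC103909985 were lower in mutants and called in all 3 comparisons. LOC100535918 stood at 0, 0.18 and 0.23 CPM in mutant ovaries and 6.0, 3.73 and 10.3 CPM in wild-type ovaries, and averaged 0.857 CPM in mutant embryos and 4.05 CPM in wild-type embryos. LOC103909985 was at 0 in each mutant ovary and at 1.30, 3.07 and 3.42 CPM in wild-type ovaries, with a mean of 0 CPM in mutant embryos and 2.46 CPM in wild-type embryos.

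**Figure D3:**
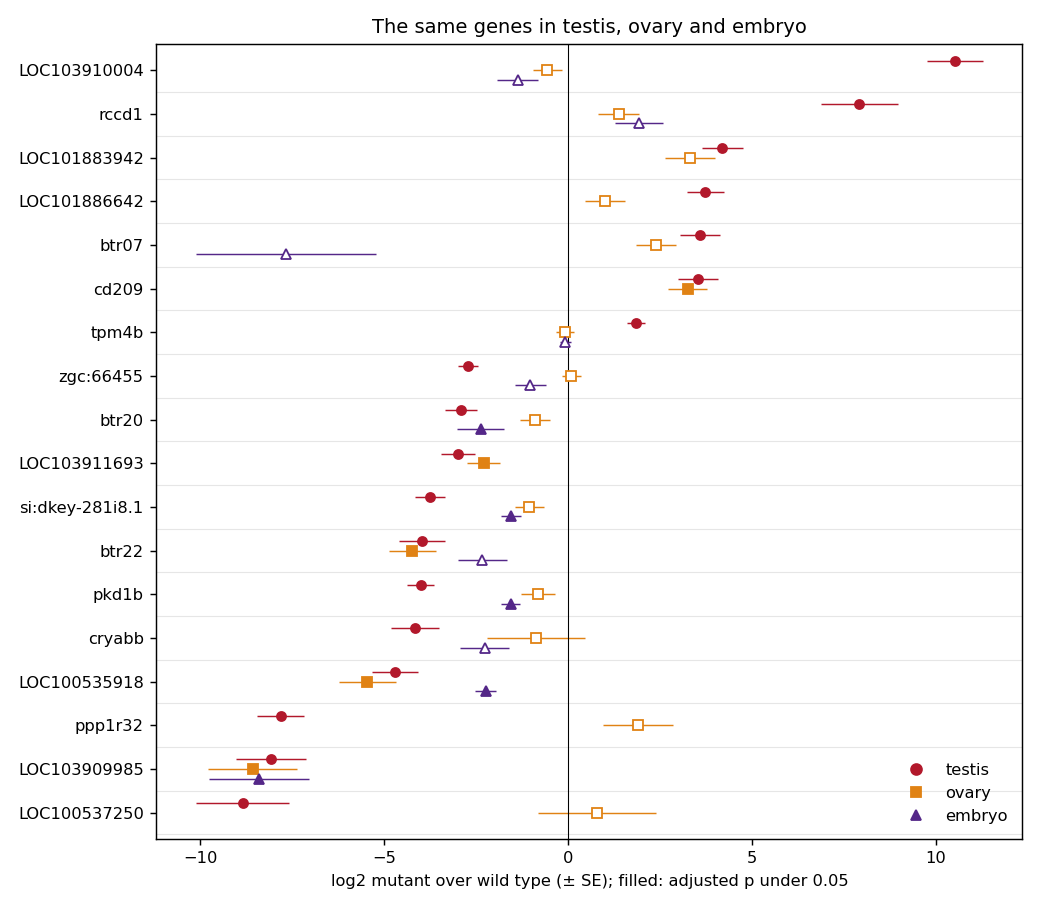
Fitted log2 of mutant over wild type, with its SE as the bar, for the 18 genes called in testis, shown for testis, ovary and embryo (for the 12 genes tested there). Filled symbols have an adjusted p under 0.05; LOC103909985 and LOC100535918 are filled in all 3, and fitted values of genes at 0 in a group depend on edgeR's prior count.

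For 3 of the 18 the difference between the testis effect and the ovary effect was itself called by edgeR, against 21 of 25870 genes (0.0812%). ppp1r32, lost from mutant testis, was barely present in either ovary group, at 0.44, 0.06 and 0.15 CPM in mutant and 0, 0.07 and 0.08 CPM in wild-type ovary (difference of effects -9.72, SE 1.13, adjusted p = 0.00551). zgc:66455 was abundant in ovaries, at 212, 182 and 145 CPM in mutant and 196, 128 and 180 CPM in wild type, without a call there (log2 0.09), and its difference of effects was -2.82 (SE 0.366, adjusted p = 0.0133). LOC103910004 had an ovary log2 of -0.57 and an adjusted p of 0.0019 for the difference. For the other 15 genes the difference between the tissues did not pass, among them pkd1b (difference of effects -3.19, SE 0.595, adjusted p = 0.099) and tpm4b (1.94, SE 0.351, adjusted p = 0.0959).

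Lists of marker and pathway genes were described by their counts and their median beside the median of all genes, 0.072. Of 42 lists, 1 had a called member, the heat shock list with cryabb, where 0.0696% of all genes were called. The Sertoli cell genes lay on the low side in mutant testis. A median below 0 was not particular to testis, as the same genes had a median of -0.53 in ovary. Their sums overlapped there, at 269.7, 183.3 and 382.5 CPM in mutant and 304, 339.5 and 249.7 CPM in wild-type ovary. amh, the anti-Müllerian hormone, a Sertoli cell signal that restrains germ cell proliferation in fish, stood at 132, 97.7 and 101 CPM in mutant testis and 353, 185 and 315 CPM in wild-type testis. The groups did not overlap, and the log2 difference was -1.37 (SE 0.288, edgeR adjusted p = 0.151, DESeq2 adjusted p = 0.00229). In ovary, where amh was low in both groups, its log2 difference was -1.18 and not called. The testis effect minus the ovary effect was -0.19 (SE 0.438, edgeR adjusted p = 0.91). gsdf, a gonadal growth factor of the TGF-beta superfamily made by Sertoli cells, stood at 446, 441 and 422 CPM in the mutant and 621, 954 and 1027 CPM in the wild type (log2 -0.99, SE 0.233, edgeR adjusted p = 0.219, DESeq2 adjusted p = 0.00452). inha, the inhibin alpha subunit, stood at 75.4, 64.9 and 73.3 CPM in the mutant and 114, 145 and 183 CPM in the wild type (log2 -1.05, edgeR adjusted p = 0.768, DESeq2 adjusted p = 0.618). The transcription factor dmrt1, needed for testis development, stood at 142, 161 and 162 CPM in the mutant and 154, 175 and 207 CPM in the wild type. Of the 14 Sertoli genes, 11 had a log2 difference below 0, where 57.1% of all genes were above 0, and none was called by edgeR. Their median was -0.38, or -0.19 without wild-type replicate 3. Their summed level was 1369, 1886 and 1687 CPM in the mutant and 2172, 2581 and 3186 CPM in the wild type. These sums did not overlap, as was so for 7 of the 42 lists on the lower side and 1 on the higher. The median log2 deviation from each gene's wild-type mean did overlap, at -0.593, -0.14 and -0.36 in the mutant and -0.205, -0.0826 and 0.212 in the wild type. The 15 Leydig genes had a median of -0.07, which was 0.38 without wild-type replicate 3 and -0.41 without mutant replicate 2, with overlapping sums, 3087 to 5133 CPM in the mutant and 2914 to 7104 CPM in the wild type.

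Germ cell lists had small median differences. The median log2 difference was -0.07 over 18 spermatogonial genes, 0.01 over 24 meiotic genes and 0.13 over 50 spermatid and sperm genes. No member was called, where 0.0696% of all genes were, which says little for lists of this size. Without overlap of the libraries, 8 spermatid and sperm genes were higher, where 10.1% of all genes were, and 2 lower, where 5.72% were. As single testis libraries were left out, the spermatogonial median ran from -0.27 (without wild-type replicate 1) to -0.01 (without wild-type replicate 2), the meiotic median from -0.06 to 0.11, and the spermatid and sperm median from 0.06 to 0.21. Among the meiotic genes, sycp3, a lateral element protein of the synaptonemal complex, stood at 374, 443 and 327 CPM in the mutant and 247, 238 and 282 CPM in the wild type (log2 0.58, edgeR adjusted p = 0.606). msh4, a MutS homolog of meiotic crossing over, stood at 50.8, 42.0 and 35.5 CPM in the mutant and 133, 125 and 37.7 CPM in the wild type (log2 -1.20, edgeR adjusted p = 0.455). The 29 oocyte genes lay on both sides, with 18 above 0 and 11 below, and their median of 0.06 ran from -0.15 to 0.24 as single testis libraries were left out. At an unadjusted p under 0.05, 7 were higher in mutant testis, where 4.02% of all genes were, and 1 was lower, where 2.99% were. The lower one was npm2a, a nucleoplasmin of the egg, at 1.21, 4.86 and 4.0 CPM in the mutant and 6.51, 11.4 and 5.13 CPM in the wild type (log2 -1.19, edgeR adjusted p = 0.697), and the egg coat genes zp2.1, zp2.2, zp2.3, zp2.5, zp3 and zp3a.1 were also below 0. One of the higher genes was bmp15, a growth factor of the oocyte, at 4.25, 3.28 and 4.07 CPM in the mutant and 1.42, 2.18 and 2.54 CPM in the wild type (log2 0.91, edgeR adjusted p = 0.25, DESeq2 adjusted p = 0.0336). Another was figla, an oocyte transcription factor, at 1.07, 2.96 and 2.99 CPM in the mutant and 1.1, 0.87 and 0.27 CPM in the wild type (log2 1.65, edgeR adjusted p = 0.349, DESeq2 adjusted p = 0.0337).

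Lists of other cells of the testis differed in where they lay. Red blood cell genes and T and NK cell genes had medians of 0.00 over 14 and 21 genes, while fibroblast, matrix and leukocyte genes lay below the median of all genes. Of the red blood cell genes 7 were above 0 and 7 below. At an unadjusted p under 0.05, 2 were lower, where 2.99% of all genes were, and 0 higher, where 4.02% were. One of the 2 was the globin ba1, at 15.2, 34.7 and 30 CPM in the mutant and 106, 132 and 40.9 CPM in the wild type (log2 -1.80, edgeR adjusted p = 0.414). The red blood cell sums overlapped, at 157 to 289 CPM in mutant and 177 to 484 CPM in wild-type testis. Of 21 fibroblast and matrix genes, 20 had a log2 difference below 0, where 57.1% of all genes were above 0, and none was called by edgeR. Their median was -0.61. It was -0.93 without mutant replicate 1, -0.51 without mutant replicate 2 and -0.46 without wild-type replicate 1. Their sums did not overlap, at 1584, 1157 and 1002 CPM in the mutant and 2322, 2129 and 2264 CPM in the wild type. Of the 42 lists, 7 had lower sums in the mutant without overlap. fn1b, a fibronectin of the extracellular matrix, stood at 388, 86.3 and 52.1 CPM in the mutant and 658, 455 and 757 CPM in the wild type (log2 -1.83, SE 0.582, edgeR adjusted p = 0.448, DESeq2 adjusted p = 0.0945). Mutant replicate 1 alone was close to the wild type, and without it the log2 difference was -3.17 and called (edgeR adjusted p = 0.0068). That library was singled out after its values were seen. Without mutant replicates 2 and 3 the difference was -1.5 and -1.393, not called. Without wild-type replicates 1, 2 and 3 it was -1.785, -2.012 and -1.666, not called. Its paralog fn1a stood at 14.0, 7.94 and 6.52 CPM in the mutant and 38.5, 38.9 and 22.9 CPM in the wild type (log2 -1.82, edgeR adjusted p = 0.264, DESeq2 adjusted p = 0.0191). In ovaries both had a log2 difference above 0, 1.83 for fn1a and 1.88 for fn1b, neither called.

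The 33 leukocyte genes had a median of -0.88, and 10 of them were lower at an unadjusted p under 0.05, where 2.99% of all genes were. ptprc, the pan-leukocyte phosphatase CD45, stood at 6.17, 8.14 and 6.32 CPM in the mutant and 14.6, 37.5 and 16.5 CPM in the wild type (log2 -1.73, SE 0.443, edgeR adjusted p = 0.275, DESeq2 adjusted p = 0.0142). The list's sums overlapped, at 251, 521 and 501 CPM in the mutant and 421, 1284 and 636 CPM in the wild type, and its median was -0.29 without wild-type replicate 2, the library with the highest sum, and -0.53 without mutant replicate 1. Liver genes, which a dissected gonad can carry from its surroundings, had a median of -2.50, or -0.87 without wild-type replicate 1, with overlapping sums of 493, 83.6 and 62.0 CPM in the mutant and 1297, 381 and 156 CPM in the wild type. Replicate 1 had the highest liver sum in both groups, and the part of liver genes in the other results was not tested. The skin keratin list was drawn by gene names, not by expression in skin. Its sums were 1175, 1425 and 1021 CPM in the mutant and 1709, 1769 and 2154 CPM in the wild type. Of these krt8 alone held 619, 597 and 397 CPM in the mutant and 840, 843 and 963 CPM in the wild type. Of the list's 18 genes, 13 were below 0 and 5 above. Their median was -0.46, or -0.21 without mutant replicate 1 and -0.29 without wild-type replicate 2. Among them, krt15 stood at 41.6, 34.3 and 25.8 CPM in the mutant and 49.2, 94.7 and 124 CPM in the wild type (log2 -1.40, edgeR adjusted p = 0.306, DESeq2 adjusted p = 0.0495).

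**Figure D4:**
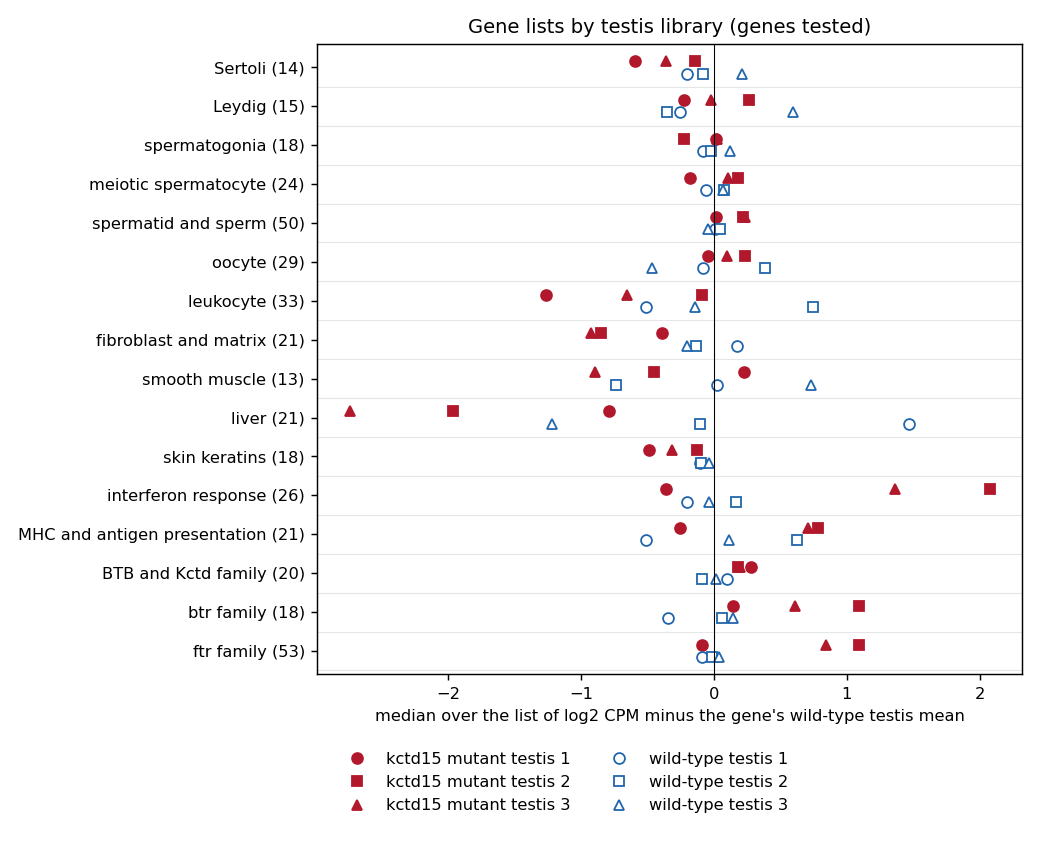
For each gene list (number of genes tested in brackets), the median over its genes of the log2 CPM minus the gene's mean in wild-type testis, in each mutant library (filled red) and wild-type library (open blue). Fibroblast and matrix genes separate the genotypes. So do skin keratins by a narrow gap and, with the mutant higher, the BTB and Kctd family. For interferon response genes mutant replicate 1 lies with the wild type at -0.36 and mutant replicates 2 and 3 stand at 2.08 and 1.36.

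Antiviral genes stood high in 2 of the 3 mutant libraries. Of 26 interferon response genes, 24 had a log2 difference above 0, where 57.1% of all genes did, and the median was 1.21. At an unadjusted p under 0.05, 10 were higher, where 4.02% of all genes were, but none was called by edgeR or by DESeq2. Their summed level was 606, 2241 and 1403 CPM in the mutant and 585, 749 and 759 CPM in the wild type, so mutant replicate 1 lay inside the wild-type range and the groups overlapped. mxb, a dynamin-like antiviral GTPase, stood at 14.7, 255 and 128 CPM in the mutant and 19.8, 33.9 and 15 CPM in the wild type (log2 2.54, SE 0.793, edgeR adjusted p = 0.447). rsad2, the antiviral enzyme viperin, stood at 3.58, 52.1 and 19.9 CPM in the mutant and 5.32, 2.13 and 2.81 CPM in the wild type (log2 2.88, SE 1.02, edgeR adjusted p = 0.512). The median was 1.67 without mutant replicate 1, 0.63 without mutant replicate 2 and 1.45 without both libraries numbered 1. In ovaries the same genes had a median of 1.28, with sums of 174, 207 and 438 CPM in mutant and 140, 151 and 122 CPM in wild-type ovary. Genes of antigen presentation had a median of 0.41 over 21 genes in testis, 14 of them above 0 and none called, and the median ran from 0.24 without mutant replicate 2 to 0.71 without mutant replicate 1.

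**Figure D5:**
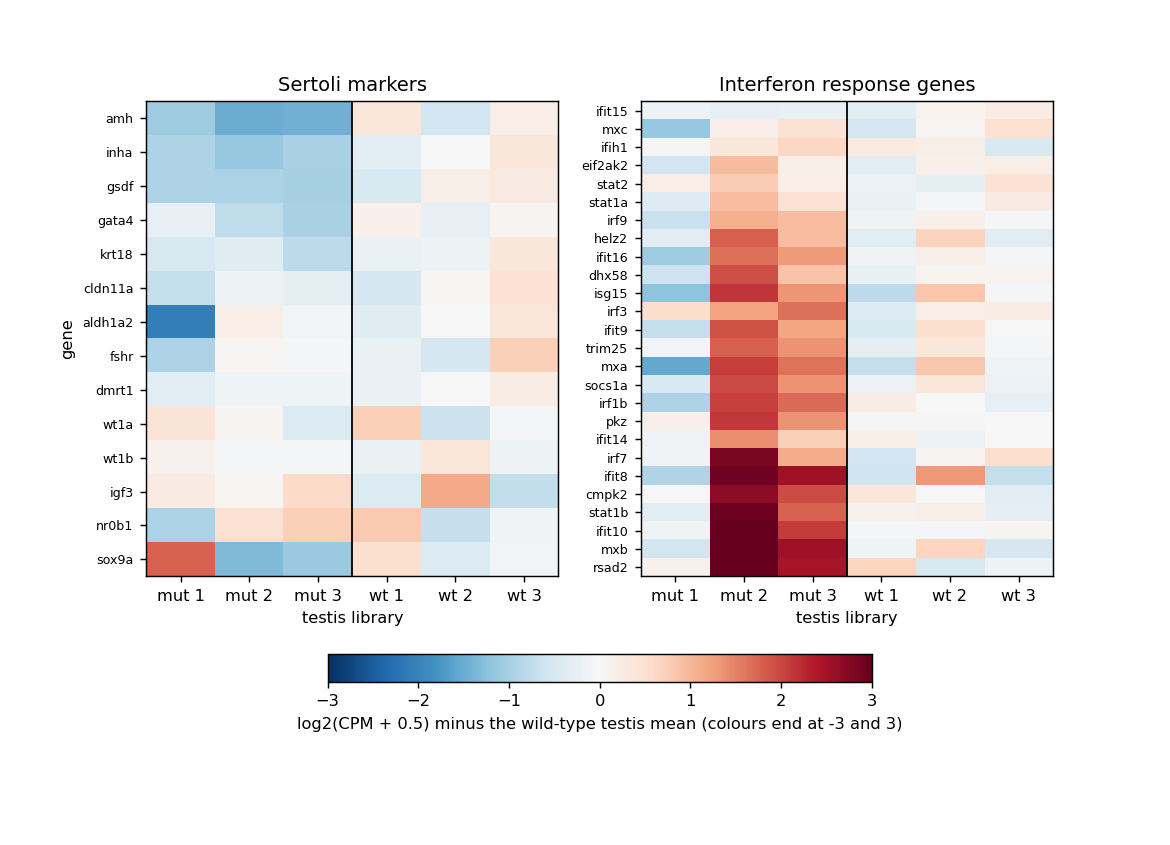
Colour gives log2 of CPM plus 0.5 minus the gene's wild-type testis mean for each Sertoli marker (left) and interferon response gene (right), in the mutant (mut) and wild-type (wt) testis libraries, with genes ordered by log2 difference. amh, inha and gsdf are low in all 3 mutant columns, while most interferon genes are high in mutant columns 2 and 3 and not in column 1.

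No gene of the BTB and Kctd list and no AP2 factor was called in testis, where 0.0696% of all genes were. That list held only genes named kctd, kctd15a and kctd15b among them, and no other BTB genes. The 20 genes tested of the BTB and Kctd list had a median log2 difference of 0.25 (0.16 without wild-type replicate 3), with 14 above 0, where 57.1% of all genes were. Their sums did not overlap, as was so for 8 of the 42 lists, 1 higher and 7 lower, at 285, 290 and 285 CPM in the mutant and 251, 252 and 261 CPM in the wild type. kctd12.1, known as an auxiliary subunit of GABA-B receptors in mammals, stood at 3.71, 4.37 and 5.47 CPM in the mutant and 2.57, 0.97 and 1.56 CPM in the wild type (log2 1.41, SE 0.407, edgeR adjusted p = 0.381, DESeq2 adjusted p = 0.0318). Of the 5 tfap2 genes tested, which encode AP2 factors, 3 were above 0 and 2 below, and their sums were 54.1, 52.4 and 50.6 CPM in the mutant and 53.6, 46.2 and 52.6 CPM in the wild type.

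Genes that neighbour the kctd15 genes were counted in the order of RefSeq's GRCz12tu gene table, up to 50 tested genes on each side. Around kctd15a, 0 of 100 neighbours were called by edgeR or by DESeq2, and 12 had an unadjusted p under 0.05, of which 11 were higher in the mutant. Around kctd15b, 0 of 100 were called by edgeR and 3 by DESeq2, and 12 had an unadjusted p under 0.05, with 6 on each side. Over all genes 7.01% had an unadjusted p under 0.05, with 4.02% higher and 2.99% lower. edgeR called 0.0696% of all genes, and DESeq2 called 0.522% higher and 0.611% lower.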

How the data were processed

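Per the submitters' processing notes, reads were trimmed with Trimmomatic 0.36, quantified with kallisto 0.43.0 on GRCz10 and normalized with edgeR. Per the labels' protocols, RNA was extracted with TRIzol and stranded libraries were made from 100 ng. The deposited gene table holds the authors' estimated counts (expected counts) for 30490 genes, and their transcript table holds the same unit. The deposited normalized table holds a signal in CPM that the authors scaled by effective library size, for 25374 genes, used only as an alternative. Estimated counts were rounded and fitted with edgeR 4.0.16 in R 4.3.3 over the 12 gonad libraries in 4 groups (TMM, filterByExpr with a minimum count of 10 and a minimum total of 15, robust quasi-likelihood F test, two-sided, 8 residual degrees of freedom, Benjamini-Hochberg adjustment). The embryo values come from a fit of all 21 embryo libraries, the injected ones included, which share an estimate of spread. The SE is the log2 difference over the square root of F. The scripts were tested on simulated data.

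Alternatives were RLE factors, other filters, DESeq2 1.42.0, limma 3.58.1 trend on log2 of the deposited CPM plus 0.5, a replicate block, the testis libraries alone, and leaving out libraries. The comparison, the gene lists and the rule for named genes were chosen with earlier results of these data known. The rule names kctd15a and kctd15b, up to 12 called genes each way that have a gene name, libraries that do not overlap and a group mean reaching 5 CPM, called list members, the first 3 measured markers of each cell type list (given here mostly through the sums of their lists), and up to 4 genes each way whose effect differs from that in ovary. It named btr07, tpm4b, ppp1r32, cryabb, pkd1b, btr22 and btr20 among the called genes; the other called genes and list members were named after their values were seen. Of the genes tested, 82.7% matched RefSeq's GRCz12tu gene table, which gave names and neighbours only. No sequence or genomic position is given. Intervals and floors cover counting error only.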

Additional observations from a re-analysis of the deposited data

Results flagged for a closer look

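The mutant effect in testis differed from that in ovary, by edgeR's test of the difference, for 7 genes named here. For 3 of them the testis held the called change: ppp1r32 (testis minus ovary effect -9.72, adjusted p = 0.00551), zgc:66455 (-2.82, adjusted p = 0.0133) and LOC103910004 (11.1, adjusted p = 0.0019), the last a fitted value against wild-type testes at 0 that depends on the prior count.

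For the other 4 the ovary held the called change and the testis did not pass. hmcn2, a hemicentin of the extracellular matrix, stood at 9.03, 5.55 and 6.09 CPM in mutant testis and 9.31, 15.8 and 9.54 CPM in wild-type testis, and at 1.06, 1.29 and 1.07 CPM in mutant ovary and 42.1, 34.3 and 26.7 CPM in wild-type ovary (difference of effects 4.16, adjusted p = 0.00531). layna, a layilin, stood at 5.81, 4.74 and 11.1 CPM in mutant and 5.00, 5.57 and 6.20 CPM in wild-type testis (difference of effects -5.37, adjusted p = 0.0483). fer1l6, a ferlin, stood at 3.98, 3.89 and 4.89 CPM in mutant and 3.39, 5.96 and 1.74 CPM in wild-type testis (difference of effects -5.19, adjusted p = 0.0417). cadpsb, a factor of dense-core vesicle release, stood at 9.21, 8.30 and 8.92 CPM in mutant and 8.26, 7.56 and 8.29 CPM in wild-type testis (difference of effects -4.82, adjusted p = 0.0116). layna, fer1l6 and cadpsb averaged 5.58, 7.54 and 9.34 CPM in mutant ovaries, against 0.0953, 0.174 and 0.296 CPM in wild-type ovaries.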

How the results depend on the processing

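The 18 called genes became 293 with DESeq2, 119 with limma-trend and 7 with the testis libraries alone, and 5 to 24 without single libraries; with 19 under RLE factors, 21 without a filter, 13 at a mean of at least 1 CPM and 24 without both testis libraries numbered 1, the count stayed within 1.5 times. The 21 genes whose testis and ovary effects differed became 12 at a mean of at least 1 CPM, 394 with DESeq2, 63 with limma-trend, 11 without both testis libraries numbered 1 and 7 to 23 without single libraries. Replicate numbers were not taken to pair the libraries: deviations of equally numbered mutant and wild-type testis libraries correlated at 0.361, 0.202 and 0.0675 over 22872 genes, and not all passed 0.1. With a replicate block the counts were 10 and 13, and 6 with the testis libraries alone and the block. The cause of these shifts was not tested; dropping a library leaves fewer samples. Of 78 gene-level differences recomputed under each alternative, 0 changed sign. The median of the interferon response genes ran from 0.63 to 1.67 and that of the fibroblast and matrix genes from -0.93 to -0.46. The signs of the Leydig, meiotic, oocyte, T and NK cell, red blood cell, endothelial and fate regulator medians changed with the setting. kctd15b rests on 11 to 44 estimated counts a library.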

Other observations

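A second TRIM family that is large in fish, the finTRIM genes (ftr), was looked at after the btr values were seen. Of 53 tested ftr genes, 48 had a log2 difference above 0 in testis, where 57.1% of all genes did, with a median of 0.66. At an unadjusted p under 0.05, 8 were higher, where 4.02% of all genes were, and 0 were lower, where 2.99% were; none was called by edgeR. Their summed level was 362, 619 and 531 CPM in mutant testis and 282, 370 and 352 CPM in wild-type testis. Mutant replicate 1 thus lay inside the wild-type range. The median was 0.97 without mutant replicate 1 and 0.45 without mutant replicate 2. Without overlap of the libraries, 10 ftr genes were higher, where 10.1% of all genes were, and 0 lower, where 5.72% were. ftr30 and ftr34 are among these 10, and were named after their values were seen. ftr30 stood at 35.7, 43.8 and 37.4 CPM in mutant and 13.0, 11.5 and 21.6 CPM in wild-type testis (log2 1.34, edgeR adjusted p = 0.336, DESeq2 adjusted p = 0.0332). ftr34 stood at 34.1, 18 and 26.5 CPM in mutant and 2.16, 3.25 and 8.20 CPM in wild-type testis (log2 2.53, edgeR adjusted p = 0.307, DESeq2 adjusted p = 0.0173). Among the btr genes, btr02 stood at 0.40, 8.95 and 11 CPM in mutant and 0.28, 0.53 and 1.03 CPM in wild-type testis (log2 3.46, edgeR adjusted p = 0.275), so mutant replicate 1 again lay with the wild type.

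tnfrsf9a, a costimulatory receptor of lymphocytes, stood at 53.6, 19.8 and 7.02 CPM in mutant testis and 2.29, 2.23 and 2.99 CPM in wild-type testis (log2 3.42, SE 0.926, edgeR adjusted p = 0.332, DESeq2 adjusted p = 0.00698). The mutant libraries spread widely and did not overlap the wild type. The summed level of the 21 T and NK cell genes tested was 155 to 230 CPM in mutant and 146 to 191 CPM in wild-type testis, and their median log2 difference was 0.00.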
